A study of Mus musculus with 2 samples.

Results

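White early preadipocytes of the cluster wAPC 2 were 260 of the 1999 white precursor cells with an authors' cluster label in the table used here (13.0%, 11.6 to 14.6%), in a series whose files hold 12270 cells. They were chosen by that label alone, and the label table used here is a shortened copy that covers 1999 of the 4407 white cells that passed the quality filters. The authors labelled more cells than these, so the share is one of the cells at hand. The cells came from subcutaneous white fat of male and female C57/BL6J pups at postnatal day 0, were pooled, grown in culture without any treatment for 4 days until confluent, and captured as 1 droplet library (WAT). Interscapular brown fat of pups of the same strain and age gave 1 further library (BAT), which was grown in the same way. The other 1739 labelled white cells, the comparison group here, fall into wAPC 1 with 462 cells, wAPC 3 with 270, wAPC 4 with 62, committed precursors (wCAPs) with 674, fibro-adipogenic progenitor-like cells (wFAPLs) with 256, and differentiating wFAPLs with 15. The files share 9 cell barcodes, and 1 of the 260 wAPC 2 cells has such a barcode.

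Adipocyte precursors are fibroblast-like stromal cells that carry receptors for platelet-derived growth factor. They become committed once the nuclear receptor PPARγ switches on genes of lipid storage, and DLK1, a membrane protein related to Notch ligands, is made before that step and holds it back. Early precursors therefore combine high Dlk1 with little Pparg, and differ among themselves in genes of position, matrix and signalling.

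With 1 library per depot there was no replicate, and the clusters were drawn from the same genes that are compared below. All differences are therefore descriptions of these libraries, without p-values. Levels are the unique molecular identifiers (UMIs) of a gene summed over the cells of a cluster, scaled to 1000000 UMIs of those cells (CPM). Ranges after a level, ratio or share are exact 95% intervals, which cover counting error only. The wAPC 2 cells held 7761623 UMIs, with a median of 29538 per cell and a range of 11675 to 57437, against a median of 26869 in the other labelled cells. The median number of genes was 6177 in wAPC 2 and 5826 in the others, and the mitochondrial share was 3.05% and 3.01%.

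The 4 genes taken as markers of wAPC 2 were each at their highest there among the 7 white clusters, as the plot of marker levels shows. Cpa6 (ENSMUSG00000042501, GRCm38 chromosome 1, 10324720 to 10719945), a secreted carboxypeptidase of the matrix, reached 134 CPM (126 to 142). The next clusters were wAPC 4 with 38.3 CPM, wAPC 1 with 37.9, wAPC 3 with 25.2, wCAPs with 15.3 and wFAPLs with 3.63, and it was at 0 in differentiating wFAPLs, where 3 counts would be 6.29 CPM. The ratio of wAPC 2 to all other labelled cells was 2.59 on the log2 scale (2.47 to 2.72). The wAPC 2 interval lies clear of that of every other white cluster, whereas those of wAPC 1 and wAPC 4 overlap.

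Irx1 (ENSMUSG00000060969, chromosome 13, 71957921 to 71963723), a homeobox factor of the Iroquois family that patterns tissues in the embryo, stood at 50.5 CPM (45.6 to 55.8). The next cluster was wAPC 4 with 16.5 CPM (10.96 to 23.8), followed by wAPC 3 with 13.7, wAPC 1 with 13.6, differentiating wFAPLs with 12.6, wFAPLs with 9.20 and wCAPs with 7.01. The wAPC 2 interval lies above all others, and those of the next 4 clusters in this order overlap.

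Dlk1 (ENSMUSG00000040856, chromosome 12, 109452823 to 109463336) reached 1015 CPM (993 to 1038), followed by wAPC 3 with 593, wAPC 1 with 455, wAPC 4 with 438, wCAPs with 369, wFAPLs with 188 and differentiating wFAPLs with 62.9. Its log2 ratio to the other cells was 1.36 (1.32 to 1.39). Foxp2 (ENSMUSG00000029563, chromosome 6, 14901349 to 15441977), a forkhead repressor best known from the nervous system, was at 71.2 CPM (65.4 to 77.4). After it came wFAPLs with 50.3 CPM and wCAPs with 49.0, whose intervals overlap, then 33.98 in wAPC 3, 32.8 in wAPC 1, 23.1 in differentiating wFAPLs and 14.7 in wAPC 4. Its log2 ratio of 0.79 was the smallest of the 4 and short of 2-fold.

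**Figure D1:**
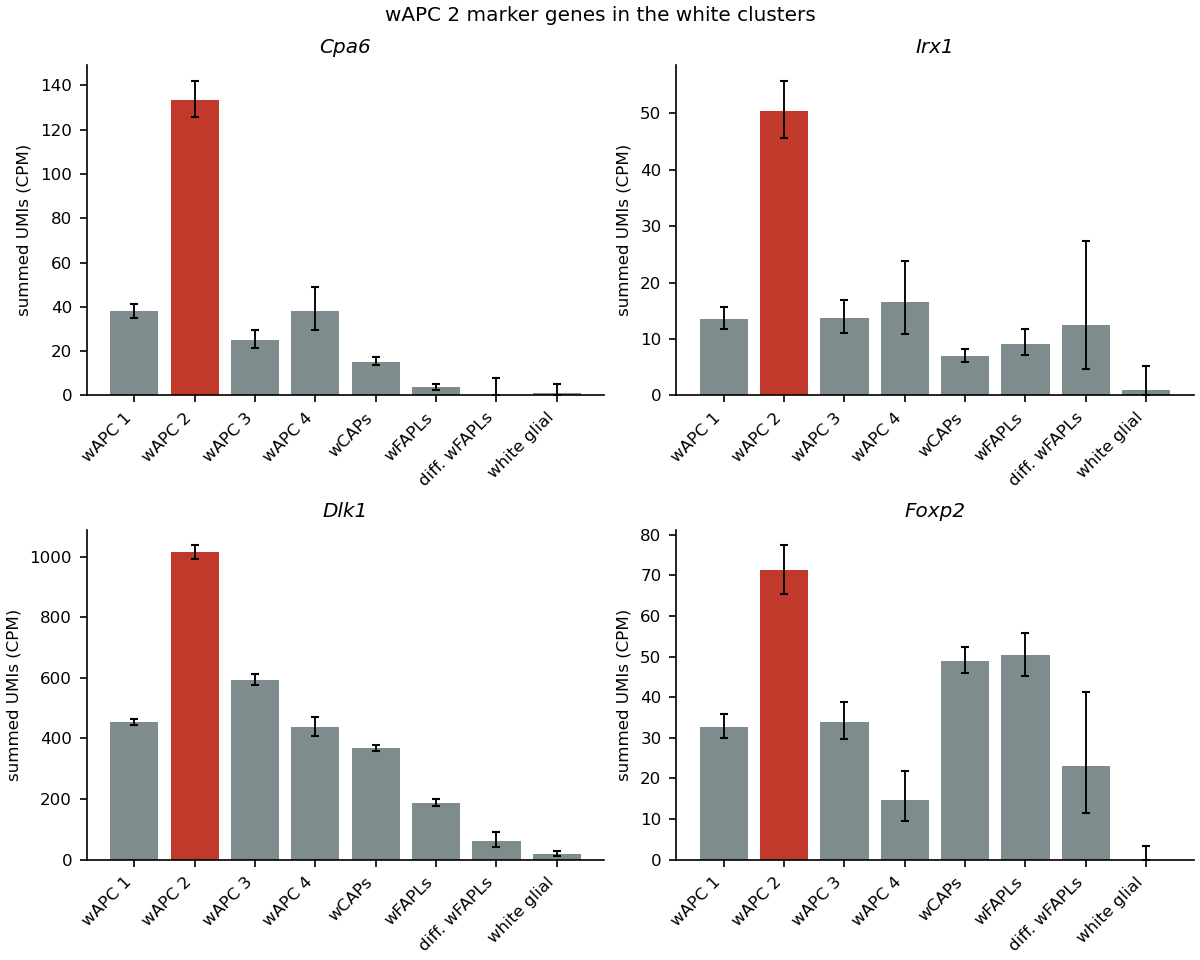
Levels (y axis, CPM) of the 4 wAPC 2 marker genes in the 7 labelled white clusters and in white glial cells. Bars start at 0, error bars are exact 95% Poisson intervals for counting error, and wAPC 2, in red, is the tallest bar for each gene, with 134 CPM for Cpa6 and 1015 for Dlk1.

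Cell by cell the markers were patchy. At least 1 UMI of Cpa6 was found in 59.6% of wAPC 2 cells (53.4 to 65.6%) and in 16.1% of the others, and Irx1 in 44.2% and 14.8%. The figures for Foxp2 were 65.4% and 46.5%, and for Dlk1 99.2% and 93.5%. In the 46 white glial cells, which should lack these genes and have a median of 20107 UMIs, the shares were 2.17% for Cpa6, 2.17% for Irx1, 0 for Foxp2 and 28.3% for Dlk1. Once every cell had been thinned to 10000 UMIs, which left out none of the labelled cells, Cpa6 was found in 46.2% of wAPC 2 cells against 10.2% of the others, and Irx1 in 28.5% against 7.94%.

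Among the thinned wAPC 2 cells, 26.5% had no UMI of Cpa6, Irx1 or Foxp2, 41.2% had 1 of the 3 genes, 23.8% had 2 and 8.46% had all of them. In the other labelled cells 61.5% had none and 0.403% had all. Dlk1 spread widely within the cluster, from 321 CPM at the 10th percentile of wAPC 2 cells through a median of 843 to 2048 CPM at the 90th. The rank correlation between Cpa6 and Irx1 over the 260 cells was 0.148, and the other pairs of the 4 genes lay between −0.0356 and 0.105. Counts of 1 cell share its depth and are sparse, and no pair of the 4 genes was closely tied.

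Levels of precursor markers are given here as a description, since the clusters were drawn from the same genes. Pdgfra, the receptor that marks adipose precursors, was at 160.1 CPM (151 to 169) in wAPC 2, the highest of the 7 clusters, with wCAPs next at 142 CPM (136 to 147), and 93.5% of wAPC 2 cells had a UMI of it. Pdgfrb, its partner on mural cells and precursors alike, was at 116 CPM against 159 in the other cells, and lowest in wAPC 2 among the white clusters. Pparg, the master regulator of adipocytes, was at 20.0 CPM (17.0 to 23.4), above wFAPLs with 9.48 and below the 39.3 of wAPC 1, 44.8 of wAPC 4, 49.5 of wAPC 3, 77.6 of differentiating wFAPLs and 92.5 of wCAPs. Of the 8 adipose precursor markers listed and measured, 4 had a ratio above 0 over the other cells, beside 51.1% of all genes. At their highest in wAPC 2 were 3 of the 8, beside 14.2% of all genes. Cd34 and Dlk1 were at least 2-fold higher and none was 2-fold lower, beside 1.06% and 0.718% of all genes, and the median log2 ratio was 0.09. Cd34 met the floor of 10 CPM for such ratios only through its level in wAPC 2, and Dlk1 is itself a marker of the cluster.

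Markers of glial, myeloid, myogenic, endothelial, epithelial and mesothelial cells were at low levels. Of the 7 glial markers, Sox10, Foxd3 and Cdh19 were at 0 and the sum of the list was 18.6 CPM in wAPC 2 and 23.5 in the other cells, nearly all from S100b with 16.5, against 2936 in the glial cells. The 7 myeloid markers summed to 7.09 CPM, with Ptprc at 0 and Lyz2 the most abundant at 2.19, against 11.7 in the other cells. The 7 myogenic markers summed to 1.03 CPM, with Myod1, Myf5, Pax7 and Myog at 0. The 7 endothelial markers summed to 42.4 CPM, of which Flt1 gave 28.0, against 54.0 in the others, with Tie1 at 0. Epithelial markers summed to 0.129 CPM and mesothelial ones to 7.99, with Msln, Upk3b and Lrrn4 at 0. Markers that precursors share with other mesenchymal cells were not low. The 21 mural and smooth muscle markers summed to 6170 CPM, with Acta2 the most abundant at 2614, against 8736 in the other cells. The 10 cartilage, tendon and bone markers summed to 259 CPM, with Runx2 at 101 and Acan, Col2a1 and Ibsp at 0, against 281.

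Among 9052 genes with at least 10 CPM in wAPC 2 or in the other labelled cells, 96 (1.06%) were at least 2-fold higher in wAPC 2 and 65 (0.718%) at least 2-fold lower. The floor could be met in either group, so some genes were let in only through the group where they are high. When the other 6 clusters weighed the same, 142 genes were higher and 207 lower, so the order of these counts turned. The scatter of levels labels 14 of the highest and 15 of the lowest ratios among genes with at least 20 CPM. After Cpa6 came Sema3d, a secreted semaphorin that repels axons and endothelial cells, with 21.8 CPM against 3.93 and a log2 ratio of 2.47 (2.16 to 2.77). Crabp1, which binds retinoic acid in the cytosol, had 154 CPM against 37.2, a log2 ratio of 2.05 (1.94 to 2.15). Lgr5, the R-spondin receptor of epithelial stem cells, had 42.4 CPM against 11.1, and Gfra1, the receptor for the nerve growth factor GDNF, 44.7 against 12.0. Gfra1 was higher still in wAPC 4, with 58.9 CPM.

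The potassium channels Kcnd2 and Kcnq5 had log2 ratios of 1.95 and 1.74, and the guidance receptor Robo2 had 1.84. The chemokine Cxcl5 was at 110 CPM against 28.6, and Saa3, an acute phase protein, at 32.7 against 9.58. Adam33, a membrane protease, was at 22.8 against 6.37. Cdkn1c, the imprinted cell cycle inhibitor p57, was at 599 CPM against 170 (log2 ratio 1.82, 1.77 to 1.87), and only the 15 differentiating wFAPLs were above it, at 912 CPM.

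**Figure D2:**
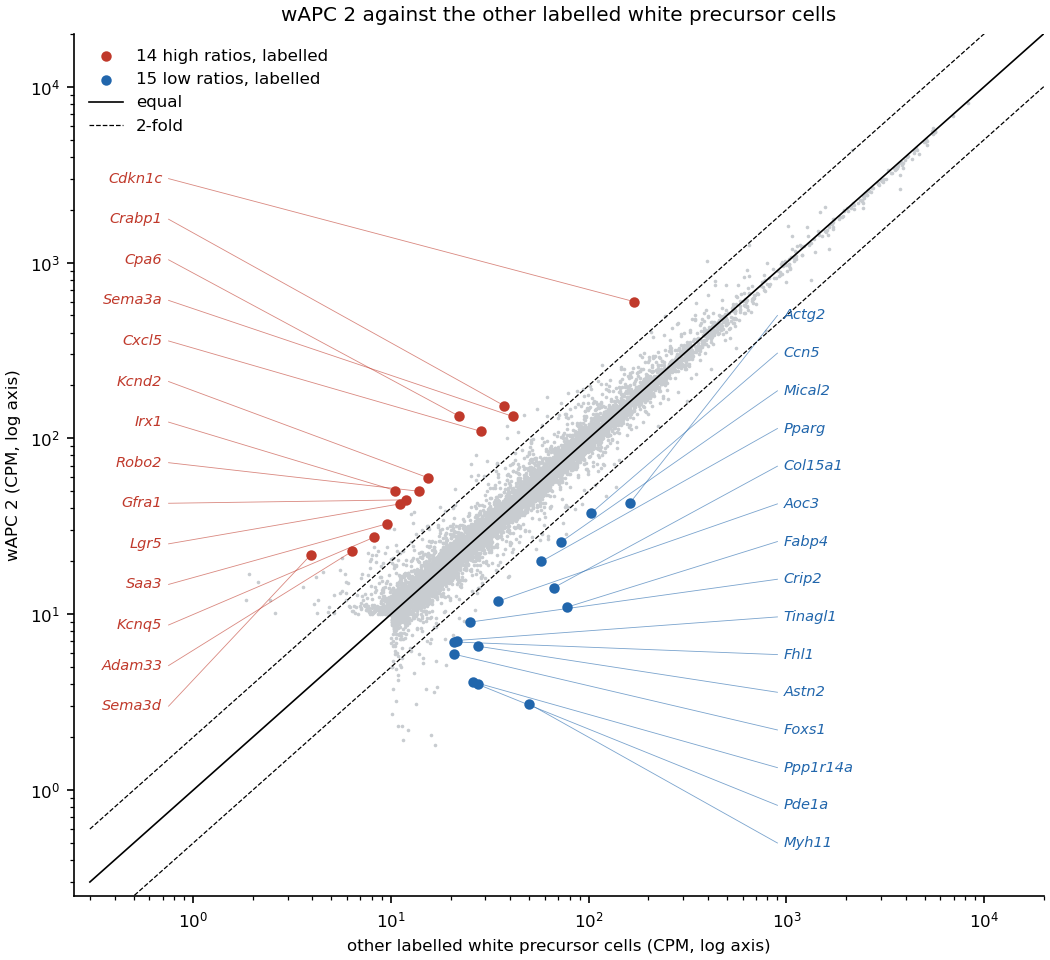
Each of 9052 genes by its level in the other labelled white precursor cells (x axis, CPM, log scale) and in wAPC 2 (y axis, CPM, log scale), with lines for equal and 2-fold levels. Most genes lie close to the line of equality, and the 14 labelled high ratios, in red, run from 2.59 for Cpa6 to 1.69 for Sema3a on the log2 scale.

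The 250 bases before the transcription start are shown for Dlk1, the Iroquois factor Irx2, Crabp1 and Sema3d, because these genes were high together in wAPC 2. These 4 were picked after their values were seen. They are RefSeq sequences on GRCm38.p6, plus strand, 5′ to 3′. Capitals mark matches, on either strand, to the TATA motif spelled TATAAA, to the letters CCAAT, which name their own box, or to the GC motif spelled GGGCGG.
Dlk1, chr12:109452573-109452822: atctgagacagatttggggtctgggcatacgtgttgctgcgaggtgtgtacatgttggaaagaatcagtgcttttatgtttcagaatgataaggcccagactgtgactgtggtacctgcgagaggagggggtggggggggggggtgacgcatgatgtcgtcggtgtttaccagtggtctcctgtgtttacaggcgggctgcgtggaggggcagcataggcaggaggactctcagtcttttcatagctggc
Irx2, chr13:72628570-72628819: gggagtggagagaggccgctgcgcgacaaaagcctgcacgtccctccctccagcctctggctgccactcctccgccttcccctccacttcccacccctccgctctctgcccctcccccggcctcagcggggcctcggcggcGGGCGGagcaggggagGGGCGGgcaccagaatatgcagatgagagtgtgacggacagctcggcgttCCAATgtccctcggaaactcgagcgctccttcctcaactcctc
Crabp1, chr9:54764498-54764747: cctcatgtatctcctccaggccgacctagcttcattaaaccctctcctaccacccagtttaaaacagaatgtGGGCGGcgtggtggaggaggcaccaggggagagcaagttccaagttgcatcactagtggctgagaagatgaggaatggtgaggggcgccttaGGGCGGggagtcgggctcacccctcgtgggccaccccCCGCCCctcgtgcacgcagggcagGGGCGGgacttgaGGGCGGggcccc
Sema3d, chr5:12382916-12383165: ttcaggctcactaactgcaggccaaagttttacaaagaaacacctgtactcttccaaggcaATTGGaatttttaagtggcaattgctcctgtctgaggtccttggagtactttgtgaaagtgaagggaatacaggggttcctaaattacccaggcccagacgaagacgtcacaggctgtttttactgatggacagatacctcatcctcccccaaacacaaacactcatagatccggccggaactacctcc
Crabp1 held 5 GC boxes, Irx2 held 2 GC boxes and 1 CCAAT box, Sema3d held 1 CCAAT box, and Dlk1 held none of these letters. Among the 32851 upstream stretches of the same length in the table, 32.7% had a GC box, 33.8% a CCAAT box and 12.4% a TATA box, so such matches are common. No matches overlap in these 4 stretches, which were 54.8% G and C for Dlk1, 68.4% for Irx2, 63.6% for Crabp1 and 46.8% for Sema3d, against a median of 52.4%.

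Imprinted growth genes, which are active from 1 parental copy and form a network that controls fetal growth, were higher in wAPC 2 as a group. All 20 measured members had a ratio above 0, beside 51.1% of all genes. The list's median was 0.56 on the log2 scale against 0.01 over all 9052 genes. Of the 20 members, 13 were at their highest of the 7 clusters, against 14.2% of all genes. At least 2-fold higher were 3 of them (Cdkn1c, Dlk1 and Plagl1) and none was 2-fold lower, beside 1.06% and 0.718% of all genes. Dlk1 is also one of the 4 genes given as markers of the cluster. Plagl1, a zinc finger factor that binds at other imprinted genes, was at 187 CPM against 87.2 (log2 ratio 1.10, 1.01 to 1.19). It was at 98.9 CPM in wCAPs, 97.2 in wAPC 4, 93.9 in wAPC 3, 84.9 in wFAPLs, 70.4 in wAPC 1 and 29.4 in differentiating wFAPLs.

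Peg3, a zinc finger factor, was at 404 CPM against 206 (0.97) and the growth factor Igf2 at 455 against 283 (0.69). The non-coding RNAs Meg3, Rian and Mirg, which lie in the same imprinted cluster as Dlk1, had log2 ratios of 0.66, 0.75 and 0.72. Members within less than 0.25 of equality were Impact, Slc38a4, Ndn, Peg10 and Sgce, with 0.22, 0.21, 0.18, 0.11 and 0.05. The list's medians were 0.45 against wCAPs and 0.61 against wAPC 1, and over the alternatives tried the median ran from 0.47 to 0.66.

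Genes of cholesterol synthesis and uptake all had ratios above 0, but by less than 2-fold. All 23 were measured, all 23 were at their highest of the 7 white clusters in wAPC 2, and none reached 2-fold. Of all genes, 51.1% had a ratio above 0, 14.2% were at their highest in wAPC 2 and 1.06% were 2-fold higher. Their median log2 ratio was 0.50, and their summed level was 2859 CPM in wAPC 2, 2416 in wAPC 1, 2212 in wAPC 3, 2130 in wCAPs, 1841 in wFAPLs, 1631 in wAPC 4 and 1290 in differentiating wFAPLs. Hmgcs1, an early enzyme of the path, was at 362 CPM against 257 (0.50, 0.44 to 0.56), the isomerase Idi1 at 188 against 125 (0.59) and Lss, which closes the sterol ring, at 32.5 against 20.5 (0.66). Ebp, with 0.11 (−0.02 to 0.24), was the closest to equal, and its interval included 0.

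Axon guidance genes, whose ligands and receptors also steer vessels and fibroblasts, were split. Of 33 measured, 5 were at least 2-fold higher (Sema3d, Robo2, Sema3a, Sema3c and Efna5) and 1 was 2-fold lower (Plxna4), beside 1.06% and 0.718% of all genes, with a median of 0.16. Sema3d met the floor of 10 CPM only in wAPC 2. Among the ligands, Sema3a was at 133 CPM against 41.3, Sema3c at 37.4 against 12.6 and the ephrin Efna5 at 146 against 55.0. Slit2, the ligand of Robo receptors, was at 1259 CPM against 646 (0.96, 0.93 to 1.00), its highest of the 7 clusters. Receptors went both ways: Robo2 had 1.84 and Robo1 0.56, whereas the semaphorin receptors Plxna4, Plxnd1 and Nrp1 had −1.20, −0.61 and −0.43, and the netrin receptors Unc5c, Unc5b and Neo1 had −0.55, −0.50 and −0.44.

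Cadherins and neural adhesion genes had a median of 0.50 over 19 measured members, 13 of them at their highest in wAPC 2, beside 14.2% of all genes. Adgrl3, an adhesion receptor of synapses, was at 173 CPM against 61.6 (1.49) and Negr1 at 19.7 against 8.41 (1.23), and these 2 passed 2-fold, beside 1.06% of all genes. Negr1 met the floor of 10 CPM only in wAPC 2. Pcdh9 with 0.98, Opcml with 0.95 and Ptprd with 0.90 came next, and Kirrel3 was 2-fold lower, at 10.6 CPM against 26.5, beside 0.718% of all genes.

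Factors of position and patterning had a median of 0.43 over 20 measured members, with Irx1 and Irx2 at least 2-fold higher and none 2-fold lower, beside 1.06% and 0.718% of all genes. Irx1 is also one of the 4 genes given as markers of the cluster. Irx2 (ENSMUSG00000001504, chromosome 13, 72628820 to 72634198), a neighbour of Irx1 on the same chromosome, was at 15.2 CPM against 5.93 (1.36, 1.04 to 1.67). It met the floor of 10 CPM only in wAPC 2. Irx3 and Irx5, of the other Iroquois gene cluster, were under 10 CPM, with 2.83 and 6.96 in wAPC 2. Twist2, a repressor of mesenchymal differentiation, was at 134 CPM against 81.1 (0.72), and Meis1, a cofactor of Hox proteins, had 0.51. The 18 Hox genes measured had a median of −0.07, with none past 2-fold.

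Interstitial progenitor markers, which define early stem-like cells of adult fat, had 7 measured members and a median of 0.66, which was 1.21 without wCAPs among the other cells, 1.19 when the other clusters weighed the same and 0.92 in thinned cells. Cd34 was at 16.2 CPM against 4.15 (1.97, 1.64 to 2.29) and Sema3c was the other member past 2-fold, beside 1.06% of all genes. Cd34 met the floor of 10 CPM only in wAPC 2, so its level there admitted it to the count and the median. Opcml had 0.95 and Efemp1 0.66, while Ly6a, Anxa3 and Ly6c1 had −0.07, −0.05 and −0.53. Dpp4 and Pi16, the leading markers of that state, were at 0.387 and 0.644 CPM in wAPC 2.

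**Figure D3:**
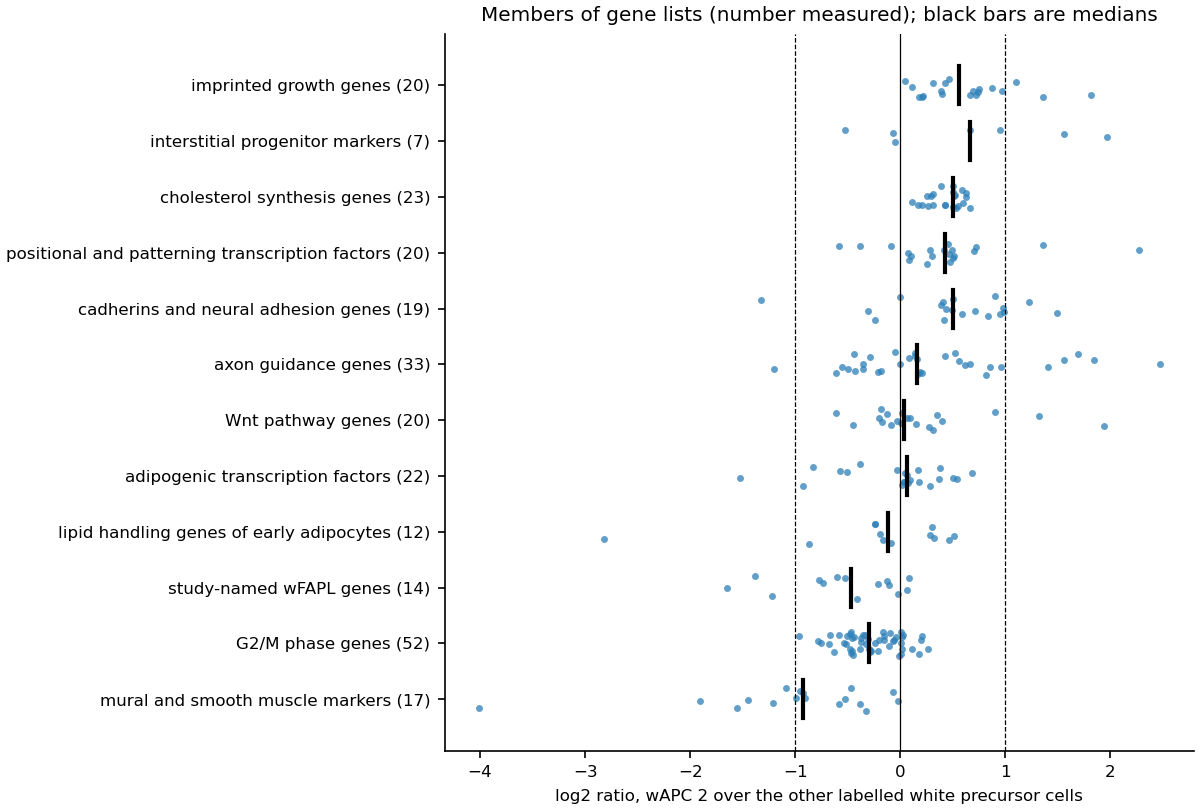
Log2 ratios of wAPC 2 over the other labelled white precursor cells for the members of 12 gene lists with at least 10 CPM in either group (points, 1 per gene) and their medians (black bars). Imprinted growth genes and cholesterol synthesis genes lie wholly to the right of 0, with medians of 0.56 and 0.50, and mural and smooth muscle markers wholly to the left, with −0.93.

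The lowest ratios included Fabp4 and Pparg of adipocytes and several genes of contractile cells. Fabp4, the fatty acid carrier of adipocytes, was at 10.95 CPM (8.75 to 13.5; log2 ratio −2.82, −3.15 to −2.51), the lowest of the 7 clusters, against 85.9 in wCAPs, 73.3 in wAPC 1, 50.3 in wAPC 3, 37.2 in wFAPLs, 25.3 in wAPC 4 and 1006 in differentiating wFAPLs. Over the alternatives its ratio ran from −4.28, with the other clusters weighing the same, to −2.64. Of 22 adipogenic transcription factors measured, only Pparg was 2-fold lower (−1.53, −1.77 to −1.30) and none was 2-fold higher, beside 0.718% and 1.06% of all genes, with a median of 0.06. Cebpa, which works with PPARγ, had −0.93, and Zfp423, a factor of preadipocyte commitment, −0.83. Zfp521, which opposes Zfp423, was at 423 CPM against 264 (0.68), its highest of the 7 clusters. Of 12 lipid handling genes of early adipocytes measured, only Fabp4 was 2-fold lower and none was higher, beside the same shares of all genes. The median was −0.12, and 5 of the 12 had a ratio above 0, beside 51.1% of all genes. Without the wCAPs in the comparison group the median was 0.13. Lpl, the lipase that releases fatty acids, was near equal at 379 against 402 CPM, and the fatty acid enzymes Scd1, Acaca, Scd2 and Fasn were at their highest of the 7 clusters, with 0.51, 0.46, 0.30 and 0.28.

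The Pparg ratio rested in part on the wCAPs: without them in the comparison group it was −0.82. Of the 10 committed preadipocyte markers of adult fat, 8 were measured. Dlk1, itself a marker of the cluster, was 2-fold higher, beside 1.06% of all genes. Fabp4, Pparg and Col15a1, the last at 14.2 CPM against 66.6, were 2-fold lower, beside 0.718% of all genes. The median of the 8 was −0.48, and −0.01 without the wCAPs in the comparison group.

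Mural and smooth muscle markers were lower as a group, with a median of −0.93. All 17 measured members were under a ratio of 0, whereas 51.1% of all genes were above 0. At least 2-fold lower were 6 of them, beside 0.718% of all genes, and none was 2-fold higher, beside 1.06%. The median was −1.90 when the other 6 clusters weighed the same and −0.63 in thinned cells. Myh11, the heavy chain of smooth muscle myosin, was at 3.09 CPM, against 102 in wFAPLs, 25.6 in wAPC 1, 7.38 in wAPC 3, 6.14 in wCAPs, 2.36 in wAPC 4 and 2522 in the 15 differentiating wFAPLs. Its log2 ratio was −4.01 (−4.66 to −3.44) and ran over the alternatives from −7.17, with the other clusters weighing the same, to −3.07, without the differentiating wFAPLs. Actg2, with 42.9 CPM against 161, Aoc3, Mcam, Notch3 and Cnn1 were the other members past 2-fold. Against wCAPs alone the list was level, with a median of 0.06 over 14 genes. Against wAPC 1 it was at −1.10, with 11 of 17 members 2-fold lower, beside 0.731% of all genes. In that comparison 1 member was 2-fold higher, beside 2.18% of all genes.

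Further genes at the low end included Ppp1r14a, an inhibitor of myosin phosphatase, with 4.12 CPM against 26.0, and the phosphodiesterase Pde1a with 3.99 against 27.5. Foxs1, a forkhead factor of perivascular cells, was at 5.93 against 20.8 and lowest in wAPC 2 among the 7 clusters. Astn2, a membrane protein of migrating neurons, was at 6.57 against 27.7. Ccn5, a secreted protein of the CCN family, was at 37.8 against 103, and Mical2, which oxidises actin, at 25.8 against 72.3.

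In the matrix, the 23 collagens measured had a median of −0.01, with 1 member 2-fold higher and 1 lower. Beside this and the other counts of matrix genes stand 1.06% and 0.718% of all genes higher and lower. Col24a1, a minor fibrillar collagen, was at 72.0 CPM against 34.4 (1.06, 0.92 to 1.20), the highest of the 7 clusters, and Col15a1 was the lower one. Of 14 basement membrane genes measured, 1 was 2-fold lower and none higher. Their median was −0.07, and −0.34 when the other clusters weighed the same. The basement membrane chains Col4a1 and Col4a2 had ratios of −0.74 and −0.60, and the laminin chains Lama2 and Lama4 had 0.73 and 0.44. Among 23 matrix proteases and inhibitors only Adamtsl1, a secreted relative of the ADAMTS proteases without protease activity, passed 2-fold, at 109 CPM against 43.8 (1.32). Among 32 genes of elastic fibres, proteoglycans and matricellular proteins, Fmod, which binds collagen fibrils, was 2-fold lower at 16.2 CPM against 39.0, and elastin (Eln) had −0.60. Of 6 metallocarboxypeptidases, only Cpa6, itself a marker of the cluster, was past 2-fold. Cpe, which processes prohormones, was at 71.2 CPM against 118 (−0.73).

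Secreted factors and receptors of other families were examined in the same way, and their counts stand beside 1.06% and 0.718% of all genes that were 2-fold higher and lower. Among 10 chemokines, cytokines and complement genes the median was 0.34, with Cxcl5 higher and Cxcl14 lower by 2-fold or more, and Cxcl12 and Ccl2 at 0.68 and 0.67. Among 27 genes of the FGF, PDGF and EGF families, Angpt2, a ligand that loosens vessels and was listed with them, was 2-fold lower at 7.21 CPM against 18.7. The keratinocyte factor Fgf7 was at 246 CPM against 152 (0.70) and Pdgfd at 100.5 against 57.8 (0.80), while Pdgfa and Pdgfc had −0.68 and −0.65. Of 11 Notch pathway genes, Dlk1, itself a marker of the cluster, was 2-fold higher and Notch3 2-fold lower. Hes1, a target of the pathway, was level at 51.4 against 50.9.

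Dermal and hair follicle fibroblast markers, listed because skin lies next to the depot, had a median of 0.34 over 8 measured members, of which Crabp1 alone passed 2-fold. Cd24a had 0.74, and Tnmd, Ptch1 and Trps1 had −0.51, −0.70 and −0.92. The 5 measured markers of adipogenesis-regulatory cells, stromal cells that restrain fat formation in adults, were all under 0, whereas 51.1% of all genes were above 0. The median of the 5 was −0.23, with Cygb the lowest at −0.99. Of 14 genes that the study named for wCAPs, Ptn, a heparin-binding growth factor, was 2-fold higher in wAPC 2, at 4393 CPM against 2153 (1.03), and Pparg and Fabp4 were 2-fold lower. Of 14 named for wFAPLs, Serpinb1a, Cryab and Cxcl14 were 2-fold lower and none higher. Of all genes, 1.06% were 2-fold higher and 0.718% lower. The study chose the wCAP and wFAPL lists on the same libraries, so they are no independent evidence of a direction.

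Among housekeeping groups no member passed 2-fold. The 80 ribosomal protein genes had a median of −0.05, with 6 ratios above 0, beside 51.1% of all genes above 0. The 77 nuclear genes of oxidative phosphorylation had a median of −0.11, with 4 ratios above 0, and 43 of them were at their lowest of the 7 white clusters in wAPC 2, as were 706 of all 9052 genes. The 13 mitochondrially encoded genes had a median of 0.05, with 8 ratios above 0.

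Signalling genes were counted against the same background, in which 1.06% of all genes were 2-fold higher and 0.718% lower. Among 36 genes of the BMP and TGF-β families, none was 2-fold higher and 3 were 2-fold lower, namely the ligands Tgfb2 (16.5 CPM against 39.5) and Tgfb3 (27.7 against 62.0) and the BMP antagonist Chrdl1. The type I receptor Bmpr1b was at 191 CPM against 103 (0.89). Of 20 Wnt pathway genes, Lgr5 and Wnt16 were 2-fold higher, the latter with 15.1 CPM against 6.05, and the antagonist Dkk2 had 0.90. Wnt16 met the floor of 10 CPM only in wAPC 2. Among 10 retinoid genes, Crabp1 and Aldh1a1 were 2-fold higher, and Aldh1a3, another enzyme that makes retinoic acid, was 2-fold lower with 3.74 CPM against 15.0. In the IGF system no member passed 2-fold, and Igfbp7, with 792 CPM against 1334 (−0.75), was at its lowest in wAPC 2. The p53 targets had a median of −0.16, with Gdf15 at 5.15 CPM against 18.9.

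The nearest clusters were wCAPs and wAPC 1, which are also the largest white clusters. Whether cluster size shaped this order was not tested. Across genes, which are not replicates, and above the same floor in the pair compared, the rank correlation of levels in wAPC 2 was 0.976 with wCAPs, 0.967 with wAPC 1, 0.960 with wAPC 3, 0.951 with wFAPLs, 0.938 with wAPC 4 and 0.766 with differentiating wFAPLs, which share the library and differ in cell number. Each wAPC 2 cell was also set among its 15 nearest labelled neighbours on 10 principal components after removal of the cell cycle scores. Of these neighbours 70.7% were wAPC 2, 15.5% wCAPs, 9.10% wAPC 1 and 3.87% wAPC 3, and 85.4% of wAPC 2 cells were given their own label back by vote. Of all labelled white cells, 13.0% were wAPC 2, 33.7% wCAPs, 23.1% wAPC 1 and 13.5% wAPC 3, so large clusters offer more neighbours.

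Against wCAPs, 101 of 9116 genes (1.11%) were at least 2-fold higher in wAPC 2 and 85 (0.932%) lower. Cpa6, Sema3d, Irx1 and Crabp1 again led, with log2 ratios of 3.12, 2.97, 2.85 and 2.65. The GABA receptor subunit Gabrb1 (24.0 CPM against 4.44) and the phosphatase Ptprz1 (31.0 against 5.98) followed, and both were also found in wAPC 1, at 16.2 and 44.3 CPM. Lowest were Agt, the precursor of angiotensin, with 2.06 against 26.0 CPM (−3.66, −4.47 to −2.94), the matrix protein Spon1 with 2.19 against 22.6, and Pde1a with 3.99 against 36.2. Pparg was at −2.21.

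Against wAPC 1, 197 of 9026 genes (2.18%) were higher and 66 (0.731%) lower. Kcnd2 was at 59.7 CPM against 4.94 (3.59, 3.23 to 3.97), Agtr2, an angiotensin receptor, at 30.5 against 4.04, and Pcsk5, a protease that activates precursor proteins, at 205 against 32.4. Hs3st5, an enzyme that modifies heparan sulphate, was at 30.9 against 5.99. Ccn2, a matricellular protein, was at 75.2 CPM against 305 (−2.02, −2.14 to −1.89), Acta1 at 4.90 against 22.3 and Gdf15 at 5.15 against 24.2.

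By scores of S and G2/M genes, 69.6% of wAPC 2 cells were called G1 (63.6 to 75.1%), 17.7% S and 12.7% G2/M (8.90 to 17.4%). In the other labelled cells the shares were 63.9%, 15.6% and 20.5%, and G2/M was highest in wAPC 3, at 45.2%. Other clusters were close to wAPC 2, with 71.7% G1 and 13.9% G2/M in wCAPs. The G2/M share was 12.9% in wAPC 4 and 13.3% in differentiating wFAPLs. In cells called G1 the Cpa6 ratio was 3.10 on the log2 scale, against 1.84 in S and 1.75 in G2/M. Cpa6 was at 139 CPM in wAPC 2 cells of G1, 174 in S and 56.2 in G2/M, the last from 33 cells. In the same order of phases, Irx1 had ratios of 2.63, 1.16 (0.64 to 1.66) and 2.34. Dlk1 had 1.48, 1.03 and 1.35, and Foxp2 0.80, 0.64 and 0.79.

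Of the wAPC 2 cells with UMIs of Xist or of Y genes but not both, 20.5% were called male (15.6 to 26.0%), and 20.5% of the other cells were. The Cpa6 ratio was 3.40 (3.10 to 3.70) over 51 male-called wAPC 2 cells and 2.38 (2.24 to 2.52) over 198 female-called ones, and for Foxp2 it was 0.47 and 0.91. Animals were pooled, so a sex cannot be told apart from the pups behind it. UMIs of both kinds were found in 10 of 260 wAPC 2 cells (3.85%, 1.86 to 6.96%) and in 34 of 1739 others (1.96%, 1.36 to 2.72%). Without these cells 100 genes were 2-fold higher and 68 lower, the log2 ratios were 2.58 for Cpa6, 2.31 for Irx1, 1.33 for Dlk1 and 0.83 for Foxp2, and Pparg was at −1.51.

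**Figure D4:**
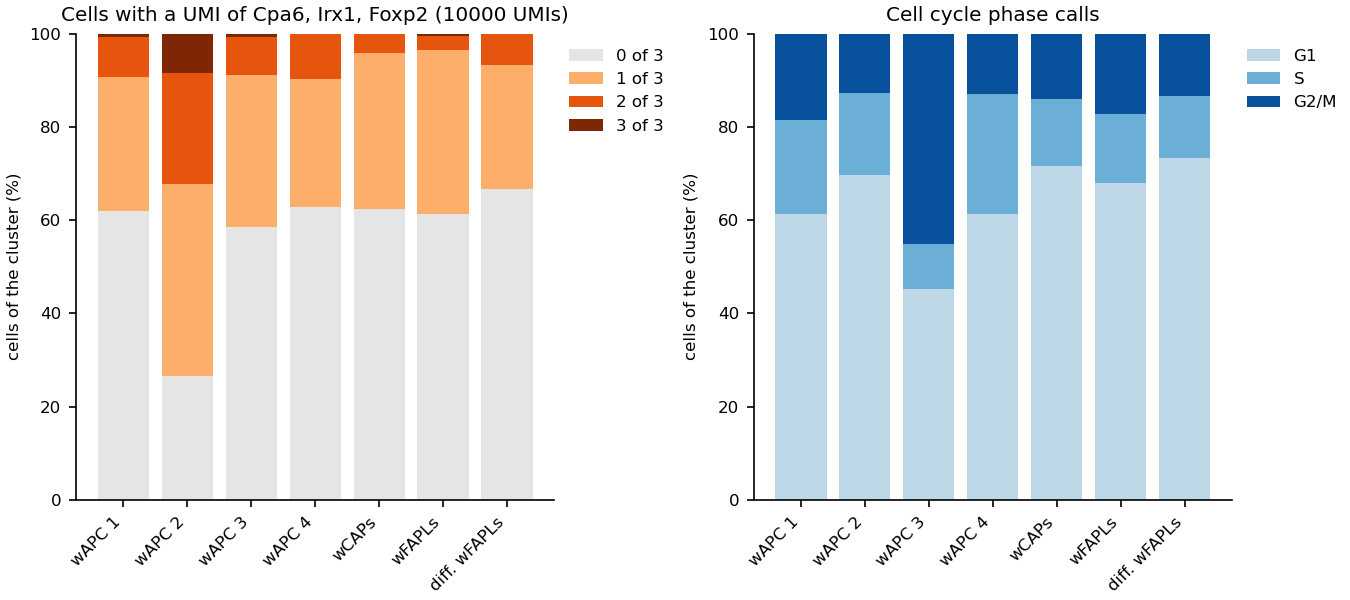
Left, share of cells (%) with a UMI of 0, 1, 2 or all of the 3 genes Cpa6, Irx1 and Foxp2 after thinning to 10000 UMIs per cell; right, share of cells (%) called G1, S or G2/M, both for the 7 white clusters. In wAPC 2, 26.5% of cells had none of the 3 genes, against 61.5% of the other labelled cells, and 12.7% were in G2/M.

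The brown library gave a separate set of cells in which the same genes could be looked at. Each of the 7 brown clusters was set against the other labelled brown cells of the 1999 in all. Of the 96 genes high in wAPC 2, 50 had at least 10 CPM over all labelled brown cells, a floor that is the same for every brown cluster. In bAPC 5, 21 of these 50 (42.0%) were at least 2-fold higher, beside 0.785% of all 8790 genes, and 2 were 2-fold lower. These 21 were 30.4% of the 69 genes high in bAPC 5. With the floor met in bAPC 5 or in the rest, which lets in genes through their level in bAPC 5 itself, the count was 29 of 64, beside 1.35%. In bAPC 1, 7 of the 50 genes were 2-fold higher (0.193% of all genes) and none was lower. The number higher was 0 in bAPC 2 (0% of all genes), 0 in bAPC 3 (0.239%), 2 in bAPC 4 (0.660%), 2 in bCAPs (0.967%) and 1 in bFAPLs (1.08%). In these clusters more of the 50 genes were 2-fold lower than higher, namely 19 in bAPC 2 (2.12% of all genes lower), 15 in bFAPLs (1.06%), 11 in bCAPs (0.819%), 6 in bAPC 4 (0.671%) and 3 in bAPC 3 (1.63%).

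Of the 65 genes low in wAPC 2, 52 met the same floor. In bAPC 5, 21 of them (40.4%) were at least 2-fold lower, beside 1.11% of all genes, and made up 21.4% of the 98 genes low there. The number lower was 14 in bAPC 3 (1.63% of all genes), 13 in bAPC 1 (0.330%), 9 in bAPC 2 (2.12%), 6 in bAPC 4 (0.671%), 3 in bCAPs (0.819%) and 3 in bFAPLs (1.06%). In bFAPLs 21 of the 52 genes were 2-fold higher instead (1.08% of all genes), and in bCAPs 13 (0.967%). The cluster bAPC 5 was not chosen in advance, as all 7 were compared.

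Cpa6 was at 69.7 CPM (60.9 to 79.4) in bAPC 5 against 13.8 in the other brown cells (log2 ratio 2.33, 2.11 to 2.55), and no other brown cluster was above 22.3. Dlk1 was at 1021 CPM against 352 (1.54), close to its level in wAPC 2, and Pparg at 12.4 against 60.04 (−2.28). Lgr5 had 1.90, Robo2 1.61, Sema3c 1.49, Gfra1 1.20, and Fabp4 and Col15a1 −2.45 and −2.25. The imprinted growth genes had a median of 0.72 in bAPC 5, with 6 of 21 at least 2-fold higher, beside 1.35% of all genes. Igf2 was among them with 455 CPM against 108.

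Other genes of wAPC 2 were not high in bAPC 5. Irx1 was at 6.19 CPM there against 13.8 (−1.16), and its highest brown level was 21.7 in bAPC 1. Cxcl5 and Crabp1 had −1.23 and 0.09, Sema3d was too low to compare, at 2.48 CPM from 8 UMIs, Foxp2 had 0.19, and the cholesterol genes had a median of 0.15. Foxp2 was highest among brown clusters in bCAPs, at 95.6 CPM, above its 71.2 CPM in wAPC 2. Crabp1 was highest in bAPC 1, at 179 CPM, above its 154 CPM in wAPC 2. In bAPC 1, in turn, Irx1 had 1.16, Kcnd2 1.52, Sema3a 1.56 and Slit2 0.69, with Cpa6 at 0.37 and Pparg at 0.31. Kcnd2 met the floor of 10 CPM in that comparison only through its level in bAPC 1, and was at 9.86 CPM over all labelled brown cells. Over all measured genes, the rank correlation between the log2 ratios of wAPC 2 and those of a brown cluster was 0.486 for bAPC 1 (8779 genes), 0.297 for bAPC 5 (8785), 0.155 for bAPC 4, 0.0336 for bCAPs, −0.105 for bAPC 3, −0.216 for bFAPLs and −0.411 for bAPC 2, a value across genes, which are not replicates. The levels of wAPC 2 themselves ranked most like those of bAPC 1, at 0.965, with bAPC 5 at 0.945. Depots were separate libraries, so the depot and the library cannot be told apart where levels are set side by side.

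**Figure D5:**
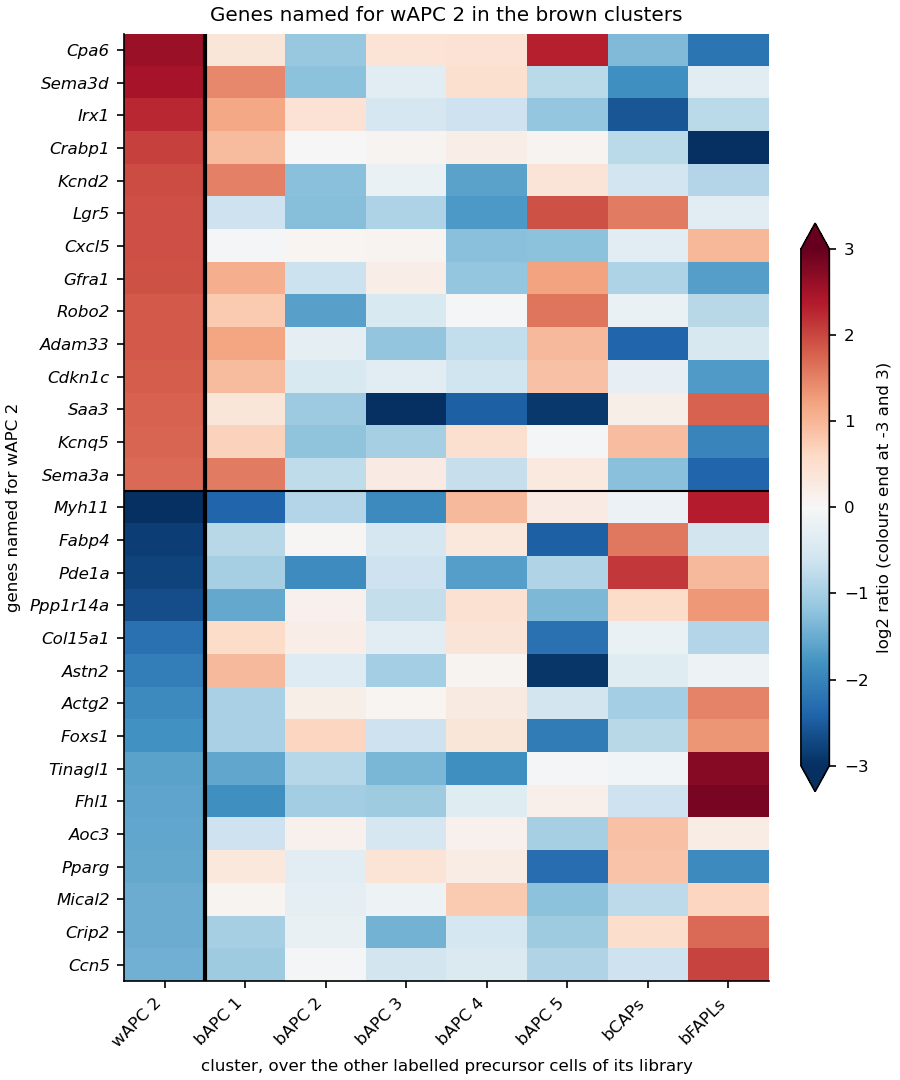
Log2 ratios (colour) of 29 genes with the highest and lowest ratios in wAPC 2, in wAPC 2 (left column) and in each of the 7 brown clusters, each over the other labelled precursor cells of its own library. The left column was used to choose the genes. Among brown clusters bAPC 5 has the reddest cell for Cpa6, at 2.33, and bAPC 1 those for Irx1 and Kcnd2, at 1.16 and 1.52. Kcnd2 met the floor of 10 CPM there only through its level in bAPC 1. Cells are coloured whether or not the floor was met, and Sema3d, Adam33 and Saa3 were under 10 CPM in every brown cluster.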

How the data were processed

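The authors made UMI counts with Cell Ranger 7.0.1 on mm10, per the submitters' processing notes, and deposited them without normalization. The WAT file holds 5261 cells (median 26239 UMIs) and the BAT file 7009 (median 26411). Quality filters (between 3900 and 7700 genes, 6000 and 60000 UMIs, and 1.7 and 5% mitochondrial UMIs) left 4407 and 6137 cells, the latter not the number that the study's methods state. Cluster labels are the authors' own, from a shortened table with 1999 cells of each library. The labels give the age as P0 and the study's methods as P1. No doublet caller was applied. Members, marker genes and gene lists were chosen with earlier results of these data known. Poisson, conditional binomial and Clopper-Pearson intervals at 95% were computed in Python 3.11.15 with numpy 2.4.6, scipy 1.17.1 and pandas 2.3.3. Counts of 0 were set to 3 counts for ratios. Phases were scored with scanpy 1.11.5 and neighbours found with scikit-learn 1.9.0. Genes at least 2-fold different had 10 CPM or more in either sum. Named genes are the 4 markers, members of the 46 lists, and, at 20 CPM or more, the 15 highest and lowest ratios against all other labelled cells and the 8 against wCAPs and wAPC 1. Some genes that meet this rule are not reported here. Gene models named Gm or Rik were counted but not named, and the genes whose upstream sequence is printed were chosen after values were seen. Alternatives were other floors, thinning, cells in G1 only, each sex, weights, carried-over labels and left-out cells. Gene positions are those of GENCODE vM21 on GRCm38.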

Additional observations from a re-analysis of the deposited data

How the results depend on the processing

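The number of genes at least 2-fold higher in wAPC 2 (96) stayed within 1.5 times of this value under 10 alternatives and moved to 33 with a floor of 50 CPM and 355 with a floor of 1 CPM, where fewer or more genes are counted. The number at least 2-fold lower (65) moved to 17 and 314 with these floors, to 207 when the other 6 clusters weighed the same, and to 152 in male-called cells, which are 51 wAPC 2 cells. Against wCAPs, 186 genes became 54 and 813 with the floors and 413 in male-called cells, and against wAPC 1, 263 became 111, 1029 and 435. The median of the G2/M genes, −0.30, turned to 0.23 in male-called cells, and the cause was not tested. No other list with a median past 0.25 in size changed sign, but several nearer 0 did, among them lipid handling (−0.12 to 0.13) and the study's wCAP genes (−0.02 to 0.33) without wCAPs, ribosomal protein genes (−0.05 to 0.05) with equal weights, and the study's white early precursor genes (−0.03 to 0.30) in G1 cells. The share of wAPC 2 was 14.2% (13.2 to 15.3%) with labels carried over to all filtered precursors, and the G2/M share was 13.1% after thinning and 14.4% with carried labels. Over the alternatives, with G1 as the only phase, the log2 ratio ran from 2.34 to 3.40 for Cpa6 and 1.99 to 2.63 for Irx1. For Dlk1 it ran from 1.29 to 1.53 and for Foxp2 from 0.47 to 1.07. In S cells Cpa6, Irx1 and Dlk1 lay below these ranges, at 1.84, 1.16 and 1.03, as did Cpa6 in G2/M cells, at 1.75. Leaving out the differentiating wFAPLs, or cells with UMIs of Xist and of Y genes, and a floor over all labelled brown cells were chosen after seeing the data. No paired analysis was possible because each depot has 1 library. Culture, animals and capture were not replicated, and free RNA and doublets were not removed.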
